A study of Mus musculus with 13 samples.

Results

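The non-collagen proteins of the extracellular matrix were described here through 45 genes measured in the mouse pancreas. The genes were taken from the RNA-seq table of 23366 genes by their Entrez identifiers, and all 45 had a value in every mouse. They comprised 15 genes of elastic fibres and microfibrils, 7 small leucine-rich proteoglycans, 8 basement membrane components, 10 matricellular proteins and 5 adhesive and other matrix proteins. The study asked what a short pulse of the reprogramming factors Oct4, Sox2, Klf4 and Myc (OSKM) leaves behind in the old pancreas. RNA was sequenced from 4 young mice of 13 weeks, 5 old mice of 55 weeks and 4 old-OSKM mice, with 1 library per mouse. The old-OSKM mice received doxycycline for 7 days from the age of 55 weeks and then recovered for 2 weeks, which made them 58 weeks old in the sample labels. All mice were i4F-B females, whose OSKM cassette sits in the Pparg gene and can be switched on by doxycycline in every tissue. The young and old controls therefore carried the transgene too but received no doxycycline, so OSKM, the drug itself and the extra weeks of age cannot be told apart. In the study's histology, SOX2 staining was broad in acinar cells but not in most endocrine cells. That was in a young mouse shortly after injected doxycycline, not in the old mice treated through drinking water.

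The extracellular matrix is the scaffold that cells secrete around themselves. In the pancreas, basement membranes of laminin, nidogen and perlecan underlie the acini, ducts and vessels, while fibroblasts and stellate cells fill the spaces between lobules with collagen, fibronectin, proteoglycans and elastic fibres. Matricellular proteins are secreted into the same space but mainly modulate how cells contact the matrix, and several of them are known from healing and fibrotic tissue.

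Values are log2 RPKM (reads scaled by transcript length and sequencing total, so that levels of genes can be compared), quantile normalized by the authors, so that every mouse had nearly the same distribution of values. The table used here holds no counts or read totals per mouse, so no counting error was computed. The 10 acinar markers, which check the labelled tissue, summed to between 9320 and 9980 RPKM in every mouse. Quantile normalization holds the highest values nearly fixed, so this narrow range does not show that the mice had equal acinar content. Old-OSKM mouse 4 stood apart over all genes, with a median absolute deviation from its group of 0.28 on the log2 scale, where the other 12 mice lay between 0.062 and 0.149. Sample identifiers fell into a run from 609 to 621 and a run from 641 to 643. The second run held young mice 3 and 4 and old mouse 5 and no old-OSKM mouse.

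The 45 genes covered a wide range of levels. Decorin (Dcn), a collagen-binding proteoglycan, had the highest mean over the 13 mice, 3.78 on the log2 RPKM scale, followed by Sparc at 2.43 and biglycan (Bgn) at 2.25. The lowest were Ltbp2 at -3.53 and tenascin C (Tnc) at -3.17, which put them at percentiles 12.3 and 19.1 of all genes. In all, 31 of the 45 genes had a mean above 0. The spread between mice was smallest in old mice. The median SD of the members was 0.17 in old mice, 0.37 in young mice and 0.49 in old-OSKM mice, beside 0.12, 0.14 and 0.22 over all genes.

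**Figure D1:**
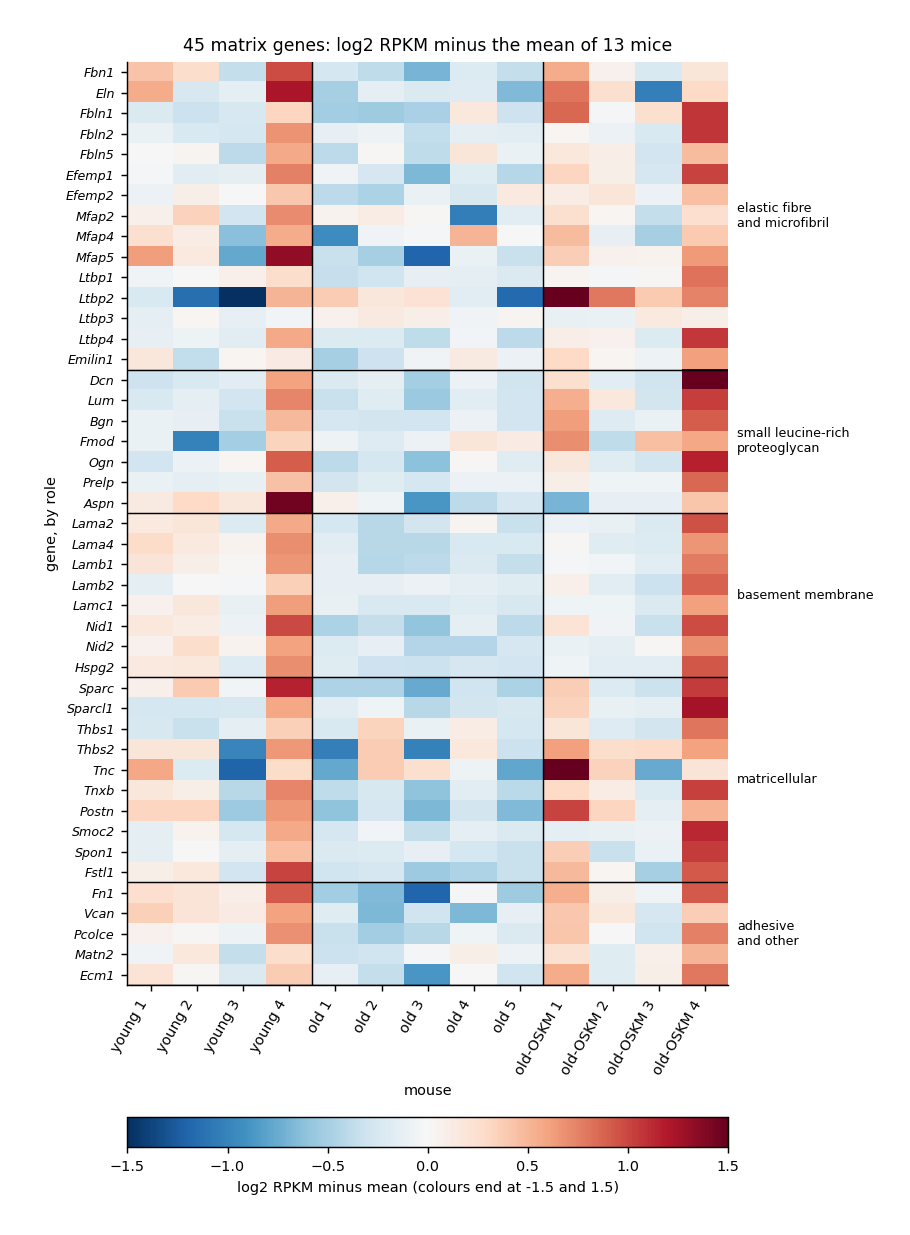
Log2 RPKM of each of the 45 matrix genes (vertical axis, by role) in each of the 13 mice (horizontal axis), as the difference from the gene's mean over all mice, in colour. Young mouse 4 and old-OSKM mouse 4 are red in most genes of every role, and the 5 old mice are mostly blue.

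In old mice most matrix genes had lower means than in young mice. Of the 45 genes, 41 (91.1%) were lower, beside 45.5% of all genes, with a median difference of -0.37 on the log2 scale, where the median over all genes was 0.00. The 4 genes with a higher mean in old mice (8.89%, beside 54.4% of all genes) were Ltbp2, Ltbp3, Fmod and Thbs1. With limma, 13 members (28.9%) were lower at a raw p under 0.05 and 0 were higher, beside 2.52% and 3% of all genes. The groups did not overlap in 10 members (22.2%), all lower in old mice, beside 1.22% of all genes lower and 1.5% higher. By the stricter rule of a raw p under 0.01 together with a change of more than 1.5-fold, fibronectin (Fn1) and versican (Vcan) fell, 2 members beside 0.437% of all genes, while 0 members rose, beside 0.449%. After adjustment over all genes, 0 members had a p under 0.05 in limma, beside 0.0813% of all genes. Without young mouse 4 the median was -0.20. In that fit 6 members were lower and 1 (Ltbp2, by 1.03) was higher at a raw p under 0.05, beside 4.55% of all genes in either direction. Only Vcan was called in it, beside 0.753% of all genes. Without young mouse 3 there were 8 calls, beside 1.2% of all genes, and 20 members at a raw p under 0.05, beside 6.05%. Without old mouse 3 the latter were 8, beside 4.44% of all genes. Without old-OSKM mouse 4, which enters through the shared spread, there were 4 calls, beside 0.984% of all genes. In bulk tissue, fewer cells of a type and less RNA per cell cannot be told apart.

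In old-OSKM mice most of these genes had higher means than in old mice. The difference was above 0 in 44 of the 45 members, all but Ltbp3, beside 36.9% of all genes above 0 and 63.1% below 0, with a median of 0.48 on the log2 scale, where the median over all genes was -0.04. At a raw p under 0.05 in limma, 19 members (42.2%) were higher and 0 lower, beside 3.98% and 4.08% of all genes. The groups did not overlap in 6 members (13.3%), namely Mfap5, Ltbp1, Ltbp2, Prelp, Hspg2 and Postn, beside 1.02% of all genes higher and 0.706% lower. By the stricter rule, fibulin 1 (Fbln1), periostin (Postn) and Fn1 rose, 3 members beside 0.582% of all genes, while 0 fell, beside 0.171%. After adjustment, 0 members had a p under 0.05 in limma, beside 0.00428% of all genes. No member was called without old-OSKM mouse 1 or without old-OSKM mouse 4, beside 0.402% and 0.775% of all genes in either direction. Without old-OSKM mouse 2 there were 5 calls and without old-OSKM mouse 3 there were 8, beside 1.45% and 1.22% of all genes. Without old-OSKM mouse 4 the median was 0.25 and 5 members had a raw p under 0.05, beside 6.23% of all genes. The latter count was 10 without old-OSKM mouse 1 and 11 without old mouse 2, beside 4.44% and 8.82% of all genes. It was 7 without old mouse 3 and 10 without old mouse 5, beside 5.15% and 5.72%. This comparison and the previous one share the 5 old mice, so their values are given side by side and not related to each other.

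Between old-OSKM and young mice, 29 of the 45 genes were higher and 16 lower, beside 38.7% and 61.3% of all genes, with a median difference of 0.08 on the log2 scale. The differences ran from -0.65 in asporin (Aspn) to 1.60 in Ltbp2, with a median SE of 0.25. In limma, 3 members (Fbln1, Ltbp2 and Fmod) were higher at a raw p under 0.05, 6.67% of the members beside 2.91% of all genes, and 0 were lower, beside 2.16%. Ltbp2 was called as higher, 1 member beside 0.454% of all genes, and 0 were called as lower, beside 0.171%. The groups overlapped in every member, where 1.09% and 0.813% of all genes were wholly higher or lower, and 0 members had an adjusted p under 0.05 in limma, beside 0.0428% of all genes. An absent call does not show that levels were alike.

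**Figure D2:**
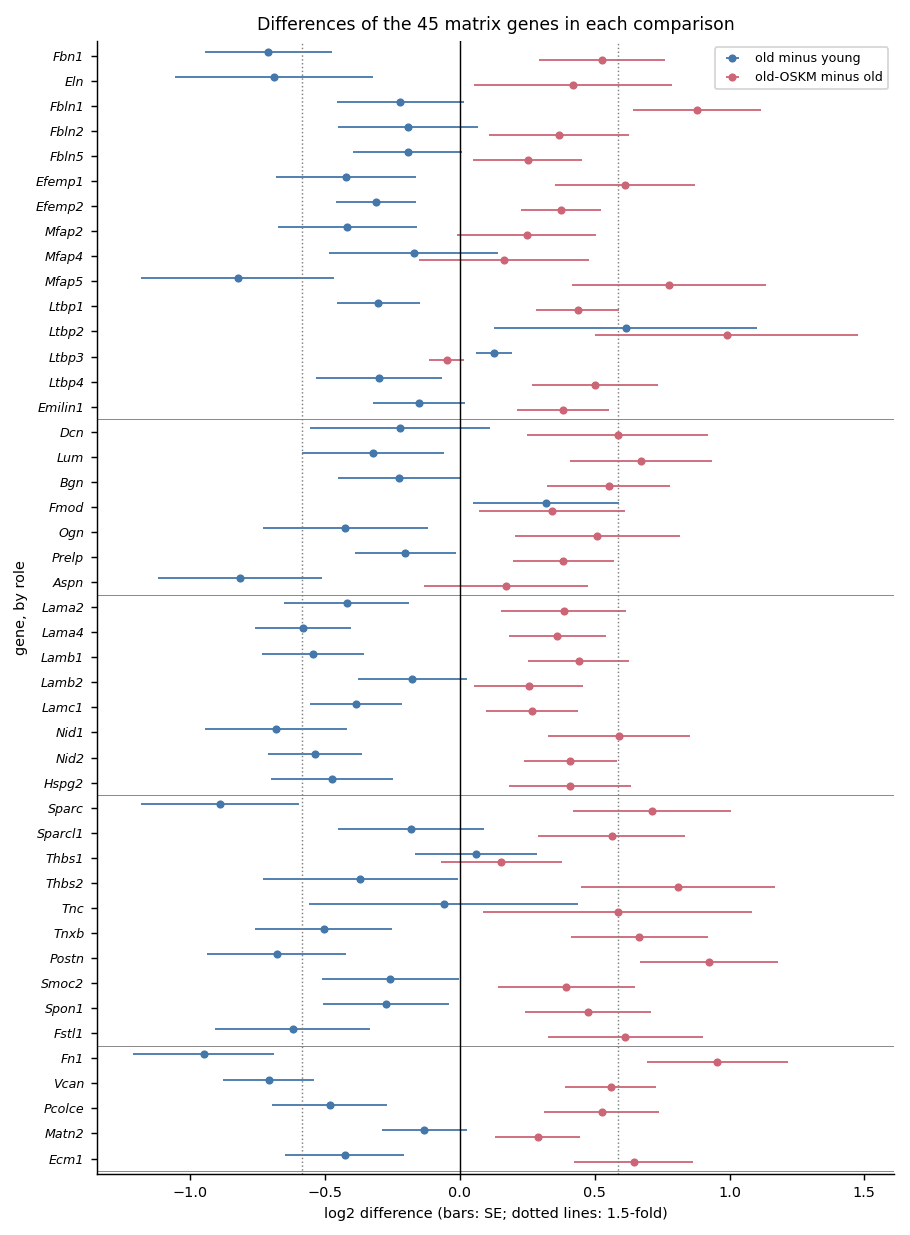
Log2 difference of each of the 45 matrix genes (vertical axis, by role) between old and young mice (blue) and between old-OSKM and old mice (red), with SE bars from limma and dotted lines at 1.5-fold. The 8 basement membrane genes lie below 0 in the first comparison and above 0 in the second.

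The level of the matrix genes was also summarised per mouse as the median over the 45. It was 0.82, 0.71, 0.55 and 1.24 in young mice 1 to 4, 0.50, 0.37, 0.21, 0.46 and 0.43 in old mice 1 to 5, and 0.91, 0.57, 0.40 and 1.53 in old-OSKM mice 1 to 4. The young and old mice did not overlap in this median, while old-OSKM mouse 3 lay within the range of the old mice. Young mouse 4 was the highest young mouse in 42 of the 45 genes and old-OSKM mouse 4 the highest old-OSKM mouse in 35. Old mouse 3 had the lowest value of all 13 mice in 19 genes. With young mouse 4 and old-OSKM mouse 4 both left out, a choice made after seeing the data, 13 members were lower with age at a raw p under 0.05 in limma and 16 higher in old-OSKM than in old mice, with medians of -0.20 and 0.25. In these fits 6.85% and 6.83% of all genes had a raw p under 0.05 in either direction. Within the identifiers from 609 to 621 (2 young, 4 old and 4 old-OSKM mice) the medians were -0.30 and 0.45. At a raw p under 0.05, 5 members were lower and 1 higher with age, beside 4.65% of all genes in either direction. With OSKM 18 were higher, beside 5.56%. The other run held too few mice for a value.

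**Figure D3:**
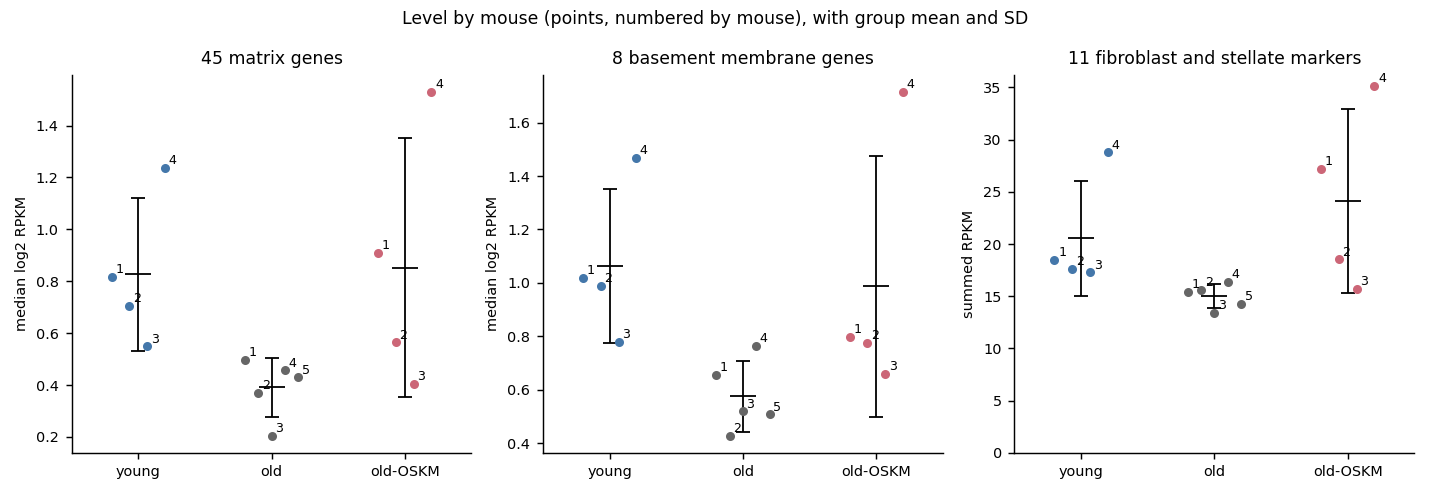
Median log2 RPKM of the 45 matrix genes and of the 8 basement membrane genes, and summed RPKM of 11 fibroblast and stellate cell markers (vertical axes), in each mouse (points, numbered by mouse), with the group mean and SD. Young mouse 4 and old-OSKM mouse 4 are the highest of their groups in each plot.

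Markers of several cell types moved in the same directions as these genes. The median differences of the fibroblast and stellate cell markers were -0.40 with age and 0.62 with OSKM on the log2 scale. Those of 5 mesothelial markers were -0.59 and 0.88, those of 9 endothelial markers -0.30 and 0.28, and those of 6 adipocyte markers -0.25 and 1.23. The summed level of 11 fibroblast and stellate cell markers was 17.3 to 28.8 RPKM in young, 13.4 to 16.4 in old and 15.7 to 35.2 in old-OSKM mice, and 28.8 and 35.2 were the values of young mouse 4 and old-OSKM mouse 4. All 11 markers had lower means in old than in young mice, 4 of them at a raw p under 0.05 in limma, and 10 had higher means in old-OSKM than in old mice, 5 at a raw p under 0.05. Of all genes, 45.5% were lower with age and 36.9% higher with OSKM, 2.52% and 3.98% at a raw p under 0.05. All 9 endothelial markers were lower with age, 1 at a raw p under 0.05, and all 9 higher with OSKM, 0 at that p. All 7 macrophage markers were higher with OSKM, 6 at a raw p under 0.05. Thy1, a surface protein that is not particular to fibroblasts, and Clec3b, which encodes tetranectin, rose with OSKM by 0.85 and 0.77 on the log2 scale. All 5 T cell markers also had higher means in old-OSKM than in old mice, with a median difference of 0.62. The 9 endothelial markers summed to 14.8 to 23.8 RPKM in young, 12.9 to 15.8 in old and 14.7 to 29.4 in old-OSKM mice, and the 7 markers of smooth muscle and pericytes to 6.55 to 10.6, 5.58 to 6.48 and 5.80 to 14.5 RPKM. Young mouse 4 and old-OSKM mouse 4 had the highest values of their groups in these sums and in the mesothelial sum too. In old-OSKM mice the sums of 7 macrophage markers (15.2 to 40.9 RPKM) and of 6 adipocyte markers (0.661 to 5.94 RPKM) reached above those of old mice (10.2 to 17.5 and 0.571 to 0.630 RPKM), and the 5 duct markers summed to 9.64 to 11.3 RPKM over all groups. Old-OSKM mouse 1 had the highest sums of all 13 mice for macrophages, adipocytes, B and plasma cells (11.8 RPKM) and T cells (5.15 RPKM), and the lowest for islets (75.7 RPKM). Young mouse 3 had 68.9 RPKM in 6 hepatocyte markers, where the other mice had 3.08 to 7.78. The part of these cells in the matrix differences was not tested.

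Counts by role at a raw p under 0.05 in limma stand beside 2.52% of all genes lower with age and 3.98% higher with OSKM. With 1 mouse left out, 4.44% to 7.7% of all genes had such a p with age and 4.44% to 16.5% with OSKM, in either direction. With young mouse 4 and old-OSKM mouse 4 both left out these were 6.85% and 6.83%. The adhesive group held both genes called between old and young mice. Fibronectin (Fn1, chr1:71585473-71653280 in GRCm38.p6) links integrins on the cell surface to collagen and is laid down early in wounds. Its log2 RPKM was 2.14, 2.08, 1.99 and 2.80 in the young mice, 1.37, 1.23, 0.70, 1.87 and 1.35 in the old mice, and 2.43, 1.98, 1.82 and 2.81 in the old-OSKM mice. Every young mouse was above every old mouse, and 1 old-OSKM mouse lay just below the highest old mouse. Fn1 fell with age by 0.95 on the log2 scale, 1.93-fold (SE 0.26, raw p = 0.00378 and adjusted p = 0.457 in limma, exact permutation p = 0.0159). It rose with OSKM by 0.95, 1.94-fold (SE 0.26, raw p = 0.00366 and adjusted p = 0.547 in limma, exact permutation p = 0.0238). Old-OSKM and young mice differed by 0.00 in their means. The fall with age was not called without young mouse 4 (-0.77), and the rise with OSKM was not called without old-OSKM mouse 1 or without old-OSKM mouse 4 (0.77).

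Versican (Vcan, chr13:89655309-89743027) is a large chondroitin sulfate proteoglycan that binds hyaluronan. Its levels were -0.16, -0.32, -0.39 and 0.09 in the young mice, -0.70, -1.20, -0.82, -1.19 and -0.64 in the old mice, and -0.12, -0.36, -0.77 and -0.15 in the old-OSKM mice. All young mice were above all old mice, and old-OSKM mouse 3 was the 1 treated mouse within the old range. Vcan fell with age by 0.71 on the log2 scale, 1.64-fold (SE 0.17, raw p = 0.00130 and adjusted p = 0.272 in limma, exact permutation p = 0.00794, the smallest possible), and this call held with each mouse left out in turn. With OSKM it was 0.56 higher, 1.47-fold (SE 0.17, raw p = 0.00640 in limma, exact permutation p = 0.0397), which is under the 1.5-fold threshold.

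Among the rest of this group, Pcolce, an enhancer of procollagen processing, was 0.48 lower with age and 0.53 higher with OSKM on the log2 scale (exact permutation p = 0.0238 and 0.0476). Ecm1, a secreted glycoprotein, was 0.43 lower with age (exact permutation p = 0.0794) and 0.64 higher with OSKM (exact permutation p = 0.0397). Matrilin 2 (Matn2), an adaptor of matrix filaments, differed least, by -0.13 and 0.29. Thus 3 of the 5 genes were lower with age and 4 of 5 higher with OSKM at a raw p under 0.05, without young mouse 4 and old-OSKM mouse 4 these were 2 and 3, and without old-OSKM mouse 4 alone the latter was 2.

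**Figure D4:**
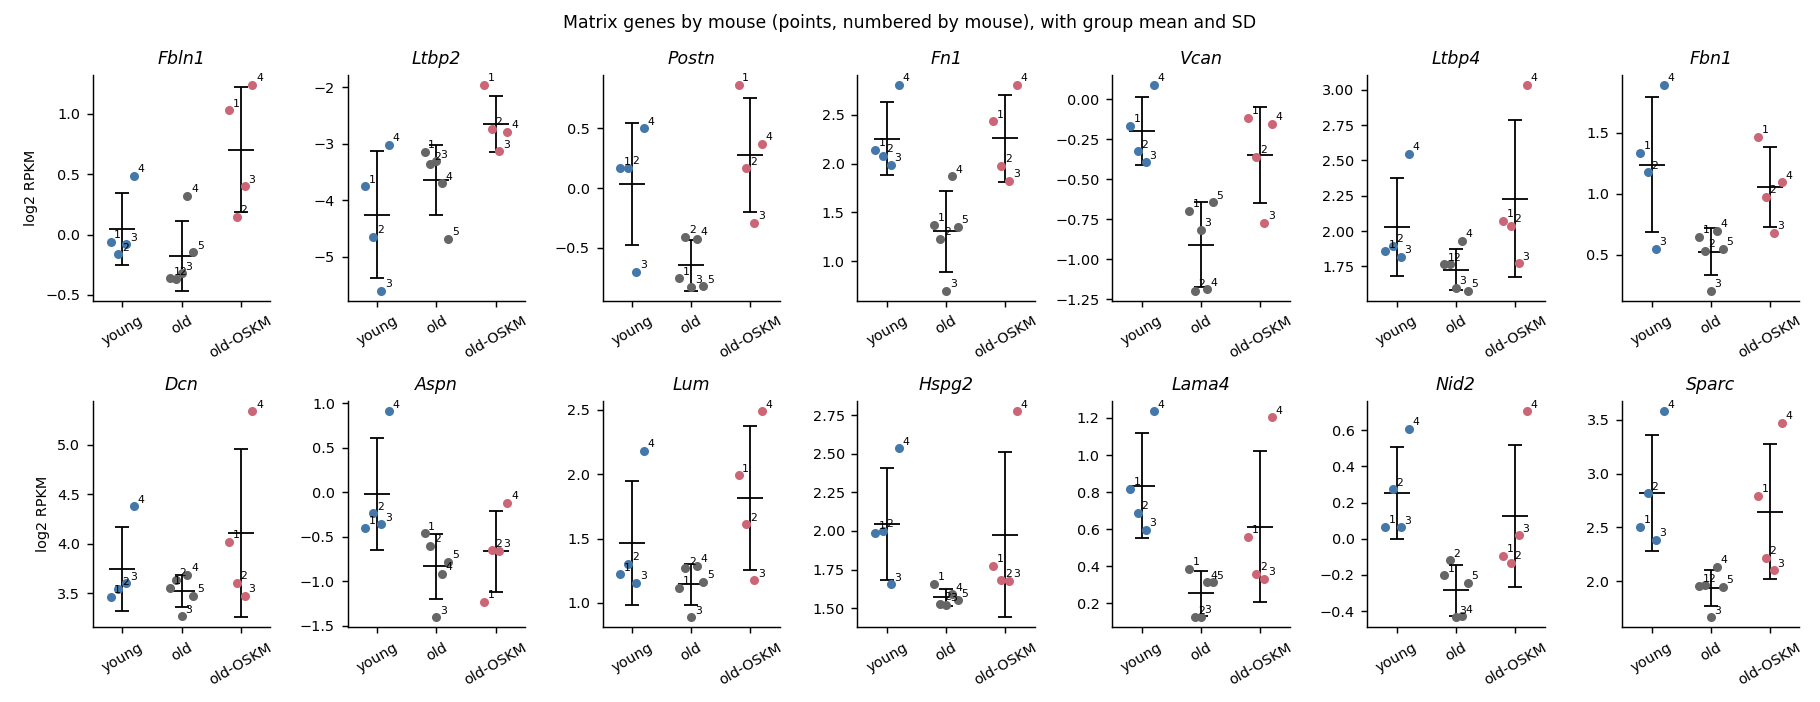
Log2 RPKM (vertical axes, each with its own range) of 14 matrix genes in young, old and old-OSKM mice, with points numbered by mouse and the group mean and SD. Fn1 and Vcan show young mice above all old mice, and in Postn all old-OSKM mice lie above the old mice.

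All 8 basement membrane genes had lower means in old than in young mice and higher means in old-OSKM than in old mice. The median differences were -0.51 and 0.40 on the log2 scale. With age, 5 of 8 were lower at a raw p under 0.05 in limma (Lama4, Lamb1, Lamc1, Nid1 and Nid2), and in the same 5 the groups did not overlap. Over all genes these shares were 2.52% and 1.22%. With OSKM, 3 of 8 were higher at a raw p under 0.05 (Lamb1, Nid1 and Nid2). Without young mouse 4 and old-OSKM mouse 4 these counts were 7 and 3. Without young mouse 4 alone 2 were lower with age, and without old-OSKM mouse 4 alone 0 were higher with OSKM at a raw p under 0.05 and the median was 0.15. The OSKM count was also 0 without old mouse 3 or old mouse 5, and 1 without old mouse 2. None of the 8 met the fold change and raw p thresholds together in either comparison.

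Laminin alpha 4 (Lama4), the laminin chain of vessel basement membranes, had 0.82, 0.69, 0.60 and 1.24 in young, 0.39, 0.12, 0.13, 0.31 and 0.31 in old and 0.56, 0.36, 0.33 and 1.20 in old-OSKM mice on the log2 RPKM scale. The old mice lay below all young mice, and old-OSKM mice 2 and 3 lay within the range of the old mice. It was 0.58 lower with age (SE 0.18, raw p = 0.00747 and adjusted p = 0.584 in limma, exact permutation p = 0.00794), just under the fold threshold of 0.585, and 0.36 higher with OSKM (SE 0.18, exact permutation p = 0.0397), or 0.16 without old-OSKM mouse 4. Nidogen 2 (Nid2), which links laminin to collagen IV, had 0.07, 0.27, 0.06 and 0.61 in young, -0.20, -0.12, -0.43, -0.43 and -0.24 in old and -0.09, -0.13, 0.02 and 0.70 in old-OSKM mice. All young mice were above all old mice, and 1 old-OSKM mouse fell within the old range. Nid2 was 0.54 lower with age (SE 0.17, raw p = 0.00955 in limma, exact permutation p = 0.00794) and 0.41 higher with OSKM (SE 0.17, exact permutation p = 0.0159), or 0.22 without old-OSKM mouse 4.

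Nidogen 1 (Nid1) was the basement membrane gene with the largest difference in both comparisons, -0.68 with age (SE 0.26, exact permutation p = 0.00794) and 0.59 with OSKM (SE 0.26, exact permutation p = 0.0159). Perlecan (Hspg2), a heparan sulfate proteoglycan, was 1.99, 2.00, 1.65 and 2.54 in young, 1.66, 1.53, 1.52, 1.59 and 1.55 in old and 1.77, 1.68, 1.68 and 2.78 in old-OSKM mice. Its old-OSKM mice were all above its old mice, 3 of them by a little and mouse 4 by far. The difference was 0.41 (SE 0.23, raw p = 0.0981 in limma, exact permutation p = 0.00794) and 0.14 without old-OSKM mouse 4, and with age it was -0.48, or -0.31 without young mouse 4. The beta and gamma chains Lamb1 and Lamc1, which most laminin trimers share, were 0.54 and 0.39 lower with age, Lama2 of muscle and nerve sheaths 0.42 lower and Lamb2 0.18 lower.

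Among the 15 genes of elastic fibres and microfibrils, 13 had lower means in old mice, 2 of them at a raw p under 0.05 in limma, and 14 had higher means in old-OSKM than in old mice, 6 at a raw p under 0.05. Without young mouse 4 and old-OSKM mouse 4 these counts were 2 and 5. The OSKM count was 2 without old-OSKM mouse 4 alone or without old mouse 2, 3 without old-OSKM mouse 1 or without old mouse 1, 3 or 5, and the age count 1 to 4 with single mice left out. Fibulin 1 (Fbln1, chr15:85205949-85286294), which binds elastin, fibronectin and laminin, was -0.06, -0.16, -0.08 and 0.48 in young, -0.36, -0.37, -0.32, 0.32 and -0.15 in old and 1.03, 0.15, 0.40 and 1.24 in old-OSKM mice. Old-OSKM mouse 2 lay below old mouse 4, and the other old-OSKM mice were above all old mice. Fbln1 rose with OSKM by 0.88 on the log2 scale, 1.84-fold (SE 0.24, raw p = 0.00321 and adjusted p = 0.547 in limma, exact permutation p = 0.0238), and was not called without old-OSKM mouse 1 or without old-OSKM mouse 4 (0.70). With age it differed by -0.22 (SE 0.24), or -0.07 without young mouse 4.

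Fibrillin 1 (Fbn1), the backbone of microfibrils, was 1.34, 1.18, 0.55 and 1.89 in young, 0.65, 0.53, 0.21, 0.70 and 0.55 in old and 1.47, 0.98, 0.68 and 1.09 in old-OSKM mice. Young mouse 3 lay among the old mice, as did old-OSKM mouse 3. The differences were -0.71 with age (SE 0.24, exact permutation p = 0.0317) and 0.53 with OSKM (SE 0.24, exact permutation p = 0.0159). Mfap5, a microfibril glycoprotein, was 0.82 lower with age (exact permutation p = 0.119) and 0.78 higher with OSKM (exact permutation p = 0.0159). Elastin itself (Eln) was 0.69 lower with age (SE 0.37, exact permutation p = 0.0556) and 0.42 higher with OSKM (SE 0.37, exact permutation p = 0.286).

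The genes named as latent TGF-beta binding proteins, a name that does not show what each one binds, had differences of both signs. Ltbp1 was 0.30 lower with age and 0.44 higher with OSKM, and Ltbp4 0.30 lower and 0.50 higher on the log2 scale (-0.13 without young mouse 4 and 0.23 without old-OSKM mouse 4), while Ltbp3 had differences of 0.13 and -0.05. Ltbp2 (chr12:84783212-84876558) was the least abundant member, with -3.75, -4.65, -5.60 and -3.02 in young, -3.15, -3.36, -3.31, -3.70 and -4.69 in old and -1.96, -2.73, -3.13 and -2.79 in old-OSKM mice. Its old-OSKM mice lay above all old mice, old-OSKM mouse 3 by only a little, and young mouse 4 lay among the old-OSKM mice. Ltbp2 was 1.60 higher in old-OSKM than in young mice, 3.04-fold (SE 0.51, raw p = 0.00939 and adjusted p = 0.706 in limma, exact permutation p = 0.0571, where the smallest possible is 0.0286). This call was lost in 11 of the 13 fits that left out 1 mouse, all but those without young mouse 4 and old mouse 5. Between old-OSKM and old mice the difference was 0.99 (SE 0.49, exact permutation p = 0.0159).

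The small leucine-rich proteoglycans coat collagen fibrils and set their thickness. With age 6 of 7 had lower means, 1 at a raw p under 0.05 in limma, and with OSKM all 7 had higher means, 2 at a raw p under 0.05 (Lum and Bgn). Without young mouse 4 and old-OSKM mouse 4 these counts were 1 and 2. The median log2 differences were then -0.06 and 0.19, where all mice gave -0.22 and 0.51. The age count was 0 without young mouse 4 alone or old mouse 3. None of the 7 had a raw p under 0.05 with OSKM without old-OSKM mouse 4 alone, old-OSKM mouse 1 or old mouse 3. Decorin was 3.47, 3.55, 3.60 and 4.38 in young, 3.56, 3.64, 3.27, 3.69 and 3.48 in old and 4.02, 3.61, 3.48 and 5.34 in old-OSKM mice. Young mouse 4 and old-OSKM mice 1 and 4 were above all old mice, and the other young and old-OSKM mice lay among the old ones. The Dcn differences of -0.22 with age and 0.59 with OSKM (SE 0.33 each) went to -0.01 without young mouse 4 and 0.18 without old-OSKM mouse 4.

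Lumican (Lum) was 1.22, 1.31, 1.16 and 2.18 in young, 1.12, 1.27, 0.89, 1.29 and 1.17 in old and 1.99, 1.61, 1.18 and 2.49 in old-OSKM mice. Old-OSKM mouse 3 was within the old range and the other old-OSKM mice were above it. It was 0.67 higher with OSKM (SE 0.26, exact permutation p = 0.0238; 0.45 without old-OSKM mouse 4) and Bgn 0.55 higher (SE 0.23, exact permutation p = 0.0238). Asporin (Aspn), which inhibits TGF-beta, was -0.40, -0.24, -0.36 and 0.91 in young, -0.46, -0.60, -1.41, -0.92 and -0.79 in old and -1.24, -0.65, -0.66 and -0.12 in old-OSKM mice. Old-OSKM mice 1 to 3 lay within the range of the old mice. Aspn was 0.81 lower with age (SE 0.30, exact permutation p = 0.0159), with -0.50 without young mouse 4, and differed by 0.17 with OSKM (SE 0.30), a value that was -0.01 without old-OSKM mouse 4. Osteoglycin (Ogn) and Prelp were lower with age by 0.43 and 0.20 and higher with OSKM by 0.51 and 0.38, and fibromodulin (Fmod) was 0.32 and 0.34 higher.

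Of the 10 matricellular genes, 9 had lower means in old mice, 2 at a raw p under 0.05 in limma (Sparc and Postn), and all 10 had higher means in old-OSKM than in old mice, 4 at a raw p under 0.05 (Sparc, Thbs2, Tnxb and Postn). Without young mouse 4 and old-OSKM mouse 4 these counts were 1 and 3. The age count ran from 1, without young mouse 1, 2 or 4 alone, to 5, without young mouse 3. The OSKM count was 1 without old-OSKM mouse 4 alone or old mouse 3 and 2 without old-OSKM mouse 1 or old mouse 5. Periostin (Postn, chr3:54359267-54391041) binds collagen and integrins and is made by activated fibroblasts. It was 0.17, 0.17, -0.70 and 0.50 in young, -0.75, -0.41, -0.83, -0.42 and -0.82 in old and 0.86, 0.17, -0.29 and 0.37 in old-OSKM mice. All old-OSKM mice were above all old mice, and young mouse 3 lay among the old mice. Postn rose with OSKM by 0.92 on the log2 scale, 1.90-fold (SE 0.26, raw p = 0.00398 and adjusted p = 0.547 in limma, exact permutation p = 0.00794), and lost its call without old mouse 3, old-OSKM mouse 1 or old-OSKM mouse 4. With age it was 0.68 lower (SE 0.26, exact permutation p = 0.0317).

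Sparc, a collagen-binding glycoprotein that assists collagen assembly, was 2.51, 2.82, 2.39 and 3.58 in young, 1.96, 1.96, 1.67, 2.13 and 1.95 in old and 2.79, 2.22, 2.10 and 3.47 in old-OSKM mice. Every young mouse was above every old mouse, and old-OSKM mouse 3 was just below old mouse 4. The differences were -0.89 with age, 1.85-fold (SE 0.29, exact permutation p = 0.00794), and 0.71 with OSKM, 1.64-fold (SE 0.29, exact permutation p = 0.0159), or 0.44 without old-OSKM mouse 4. Tenascin XB (Tnxb), which spaces collagen fibrils, was 0.67 higher with OSKM (exact permutation p = 0.0159) and thrombospondin 2 (Thbs2), an inhibitor of vessel growth, 0.81 higher (exact permutation p = 0.0556). Thrombospondin 1 (Thbs1), which can activate latent TGF-beta, differed by 0.06 and 0.15. Sparcl1, Smoc2, Spon1 and Fstl1 were 0.18 to 0.62 lower with age and 0.40 to 0.61 higher with OSKM. Tenascin C, which appears in remodelled matrix, was among the 2 least abundant members, with differences of -0.06 and 0.58 and an SE of 0.50.

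The 250 bases before the start of transcription are shown for 3 of the 5 called genes, because these rose or fell in the comparisons above and their windows hold no annotated exon in GENCODE vM21. Sequences are from RefSeq in GRCm38.p6, written 5′ to 3′ on the gene's strand, and 31 of the 45 genes had an entry. Capitals mark matches on either strand. The letters searched were TATANA for the TATA box, CCAAT for the box of that name, GGGCGG for the GC box, TGANTCA for the site of AP-1 and CATTCC for the site of TEAD factors.
Postn, chr3:54360857-54361106, plus strand: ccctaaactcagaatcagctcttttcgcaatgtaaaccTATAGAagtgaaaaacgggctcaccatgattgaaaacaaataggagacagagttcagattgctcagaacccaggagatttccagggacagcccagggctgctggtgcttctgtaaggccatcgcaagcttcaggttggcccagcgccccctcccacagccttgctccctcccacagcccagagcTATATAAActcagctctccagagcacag
Fbln1, chr15:85205699-85205948, plus strand: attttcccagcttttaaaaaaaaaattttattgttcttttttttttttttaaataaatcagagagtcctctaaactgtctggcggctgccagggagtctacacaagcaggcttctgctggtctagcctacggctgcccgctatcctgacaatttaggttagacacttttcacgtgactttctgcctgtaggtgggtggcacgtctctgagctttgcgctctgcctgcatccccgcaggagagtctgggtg
Vcan, chr13:89742513-89742762, minus strand: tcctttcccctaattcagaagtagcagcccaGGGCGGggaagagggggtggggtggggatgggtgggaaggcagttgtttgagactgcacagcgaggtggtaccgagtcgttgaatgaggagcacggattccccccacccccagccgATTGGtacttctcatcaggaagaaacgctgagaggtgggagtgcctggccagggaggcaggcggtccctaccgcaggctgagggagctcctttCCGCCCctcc
Postn held overlapping TATA matches 28 and 26 bases before its start and another 212 bases before it, Vcan held GC boxes at 219 and 10 bases and a CCAAT match at 103 bases, and Fbln1 matched none of the 5 motifs. Among the 31 genes with an entry, 51.6% held a GC box, 29.0% a CCAAT box, 22.6% a TATA box, 9.68% an AP-1 site and 9.68% a TEAD site. Over all 32851 promoters listed, the shares were 32.7%, 33.8%, 22.6%, 6.75% and 12.6%. A match describes letters and not binding. The Postn and Vcan windows lie within the RefSeq gene spans given above, which start further upstream. Fn1 and Ltbp2 are not shown.

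Exons of some members overlap those of other genes, and the library kit is not named as a strand-keeping one, so reads there cannot be told apart. Of the exon bases of Fbn1, 20.3% are shared with Gm9913, of Ltbp2 11.3% with the antisense RNA D030025P21Rik, of Prelp 9.68% with the antisense RNA Gm15851, of Nid2 8.78% with Rtraf and of Fn1 3.44% with Apol7d. Fbln1, Postn, Vcan and Sparc share none in GENCODE vM21.

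The wider matrix was read from lists of related genes that are not members. Their counts at a raw p under 0.05 stand beside 2.52% lower and 3% higher of all genes with age, and 3.98% higher and 4.08% lower with OSKM. Of 24 collagens, 22 had lower means with age, 17 at a raw p under 0.05 in limma and 10 of them called, with a median difference of -0.64 on the log2 scale. In old-OSKM mice all 24 were higher than in old mice, 16 at a raw p under 0.05 and 5 called, with a median of 0.54. Of 64 other matrix glycoproteins and proteoglycans, 46 were lower and 18 higher with age, 5 and 3 of them at a raw p under 0.05, with a median of -0.17. With OSKM, 41 of the 64 were higher and 23 lower, 7 and 2 at a raw p under 0.05, with a median of 0.16. Called genes among the 64 were Ccn6, a CCN family member, which fell by 0.68 with age and was 0.71 lower in old-OSKM than in young mice, where it was also called, and Frem1, a basement membrane protein of epithelia, which rose by 0.68 with OSKM. Both had mean log2 RPKM below -2 in every group, among the less abundant genes.

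The 6 laminin chains outside the list had median differences of -0.10 with age and 0.16 with OSKM, and Lama5, an epithelial chain, was 0.25 higher with age (SE 0.10, adjusted p = 0.785 in limma). Of 28 matrix receptors, 20 were lower with age, 3 at a raw p under 0.05 (Itga8, Itga9 and Itga11), and 21 were higher with OSKM, 4 at a raw p under 0.05, with no call in either. Integrin alpha 11 (Itga11), a collagen receptor of fibroblasts, was 0.54 lower with age (SE 0.13, adjusted p = 0.275 in limma), and integrin alpha 9 (Itga9), which binds tenascin C, was 0.53 higher with OSKM (SE 0.14, adjusted p = 0.547). Of 28 matrix enzymes and inhibitors, 21 were lower with age, 5 at a raw p under 0.05 and 2 of them called. With OSKM 24 were higher, 7 at a raw p under 0.05 and 1 called. Between old-OSKM and young mice 1 was called as higher. Mmp2, a gelatinase, fell by 0.69 with age. Loxl1, which crosslinks elastin, fell by 0.58 with age and rose by 0.62 with OSKM.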

How the data were processed

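Pancreas RNA depleted of rRNA was sequenced with paired ends, 1 library per mouse. The authors aligned the reads to mm10 with STAR 2.3.0e, estimated RPKM per isoform with Casper, summed them per Entrez gene, and deposited log2 RPKM values after quantile normalization. Sorted, the columns of the 13 mice lay within 0.0116 of each other. The correction by read totals described in the methods was not applied here, and depth per mouse was not used. Replicates are separate mice.

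Values were compared as deposited, with no filter and no pseudocount, in limma 3.58.1 (R 4.3.3) with the 3 groups in one fit over 23366 genes. Fits were tested on simulated data. A gene counted as called with a raw p under 0.01 together with a change of more than 1.5-fold. Benjamini-Hochberg adjustment ran over all genes, and exact permutation tests over mice were two-sided. The members, roles, related lists and markers were chosen with earlier results of these data known. Hmcn2 and Igkc, listed among related genes and B cell markers, had no entry under these symbols. The text names called members, those with the smallest p or highest level of each role, and others to describe each role.

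Promoters came from RefSeq (GRCm38.p6), using the listed start nearest to a principal GENCODE transcript. Alternatives were adjusted p, a filter at a mean log2 RPKM of 0, pseudocounts of 1 and 0.1, other limma settings, a covariate for the run of sample identifiers, and each mouse left out. Figures used Python and matplotlib.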

Additional observations from a re-analysis of the deposited data

Results flagged for a closer look

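In 138 groups of values (45 genes and their median in 3 groups of mice), the highest or lowest mouse stood apart from its group by Dixon's criterion at the 95% level 17 times, where chance flags about 1 in 20 groups. The genes share the same mice, so these are not independent.

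Young mouse 4 was the high value in 9 genes, given here as log2 RPKM with the next young mouse in parentheses. It had 0.48 in Fbln1 (-0.06), 2.12 in Fbln2 (1.34), 2.02 in Efemp1 (1.24) and 2.55 in Ltbp4 (1.89). It had 4.38 in Dcn (3.60), 2.18 in Lum (1.31), 1.80 in Prelp (1.26), 0.91 in Aspn (-0.24) and 2.3 in Sparcl1 (1.48). Old-OSKM mouse 4 was the high value in 6 genes, with the next old-OSKM mouse in parentheses. It had 0.76 in Ltbp1 (-0.01), 2.22 in Prelp (1.44), 1.71 in Lama2 (0.67), 1.72 in Lamb1 (0.92), 2.78 in Hspg2 (1.77) and 2.85 in Smoc2 (1.63).

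Among the old mice, mouse 4 was the low value in Mfap2, at -1.62 where the next was -0.75, and the high value in Bgn, at 2.16 where the next was 2.00. Young mouse 4 and old-OSKM mouse 4 were also the highest of their groups in the summed fibroblast and stellate cell markers. The same held for the sums of endothelial, of smooth muscle and pericyte, and of mesothelial markers. The part of these cells was not tested.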

How the results depend on the processing

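No paired analysis was possible because the labels give no replicate numbers shared between groups. The table used holds no read totals per mouse, so no limit from depth was computed. The main calls were 2 members for old against young, 3 for old-OSKM against old and 1 for old-OSKM against young, with 35 raw p-values under 0.05 over the 3 comparisons and 22 calls among 150 related genes.

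At an adjusted p of 0.05 the member calls were 0, 0 and 0. A pseudocount of 1 gave 1, 1 and 0, with 3 calls among related genes and 2 over the members (6 without it), and a pseudocount of 0.1 gave 13 among related genes. The call for old-OSKM against young mice was 0 among the 31 members with a mean above 0, with only the 2 groups compared, and with the run of identifiers as a covariate. Within identifiers 609 to 621 there were 5 calls for old-OSKM against old mice, beside 0.612% of all genes. Without young mouse 4 and old-OSKM mouse 4 there were 14 among related genes. These last settings were chosen after seeing the data.

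With each mouse left out in turn, the calls ranged from 1 to 8 for old against young, from 0 to 8 for old-OSKM against old and from 0 to 3 for old-OSKM against young. Member calls over all comparisons ranged from 3 to 11, raw p-values under 0.05 from 18 to 42 and calls among related genes from 12 to 36. The median differences ranged from -0.46 to -0.20, from 0.25 to 0.65 and from -0.08 to 0.25. The last of these changed sign. Members below 0 numbered 38 to 42 with age and 1 to 4 with OSKM (4 without old-OSKM mouse 4). Among the named genes the signs that changed were those of Fn1 between old-OSKM and young mice (-0.18 to 0.19), Aspn between old-OSKM and old mice (-0.0127 to 0.36 and -0.0127 without young mouse 4 and old-OSKM mouse 4), and Dcn between old and young mice (0.031 within identifiers 609 to 621). The cause was not tested.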
